A study of Mus musculus with 12 samples.

Results

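Hox genes encode the homeodomain transcription factors that give cells their position along the body axis. They lie in 4 genomic clusters, Hoxa to Hoxd, and the number in a name is the paralog group, from anterior (low) to posterior (high). Adult skin cells keep a position-dependent Hox pattern, and Hoxc13, at the posterior end of the Hoxc cluster, is required for hair keratin expression and a normal hair shaft. The core circadian clock is a feedback loop in which BMAL1, encoded by Arntl and also written Bmal1, activates Per and Nr1d1 genes whose products restrain it. The members here were all probe sets of the deposited expression table that carry exactly 1 gene symbol made of Hoxa, Hoxb, Hoxc or Hoxd and a number. The rule uses the gene name and no measured value. There were 37 Hox genes with such a probe set, 1 each, among 35512 probe sets that named 19938 genes by a single symbol. Hoxb8 was named only on a probe set shared with Hoxb7 and is not among them.

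The study hybridised 12 Affymetrix expression arrays in 4 groups of 3. The first 2 groups were hair follicle bulge stem cells, sorted as alpha6 integrin bright and CD34+ from dorsal skin of Per1-Venus reporter mice aged 18 to 19 days, in which a fluorescent protein reports Per1 promoter activity. Venus-bright cells were called clock-positive and Venus-dim cells clock-negative, with about 20 mice pooled per sample. In one field the clock-negative labels also state a Venus-high gate. The grouping used is that of the titles and of the series design. The other 2 groups were basal cells of the interfollicular epidermis (IFE), the skin surface between hair follicles, from wild-type mice or mice lacking Bmal1 in the epidermis (Bmal1 KO), all 1 year old, with 5 mice pooled per sample. The promoter driving the deletion is not given in the sources used here. Because each sample is a pool, p-values measure the spread between pools and not between mice. All values are log2 intensities, and a difference of 1 is a doubling. Each probe set has its own brightness, so levels were not read as one gene being expressed more than another. Genes were ranked by brightness only for the filter on dim genes and for bins by level. Levels were not compared between the bulge and IFE sets, which appear to have been normalised apart.

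The labels were checked on the same arrays. In the bulge set, all 8 bulge stem cell markers were called higher in clock-positive cells, against 45.2% of all genes tested. The markers' mean level was 10.4 in each clock-positive array against 9.36 to 9.44 in clock-negative arrays. Both groups were sorted as CD34+ bulge cells, and Cd34 itself was higher by 1.45. These markers therefore show a difference between the groups and do not check clock state. Basal keratinocyte markers stood at 12.8 to 12.9 in all IFE arrays. Per1, whose promoter drives the reporter, was 0.51 ± 0.07 higher (log2 ± SE) in clock-positive cells (limma, adjusted p = 1.95e-04). Nr1d1 overlapped between the bulge groups, at 10.25, 10.31 and 10.30 in clock-positive arrays and 10.28, 10.17 and 10.17 in clock-negative arrays. In the IFE, the Arntl probe set read 9.27, 9.47 and 9.34 in wild-type arrays and 9.85, 9.60 and 9.55 in KO arrays. That probe set therefore did not show the deletion, and whether it lies in the deleted part is not known from the files. Nr1d1, a direct BMAL1 target, fell by 3.98 ± 0.12 in KO arrays (adjusted p = 1.08e-05). In a principal component analysis of the bulge arrays, clock-positive and clock-negative arrays separated on component 1 (83.7%). In the IFE arrays the genotypes were mixed on component 1 (48.2%) and separated on component 2 (30.9%).

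The bulge comparison asked how the stem cells in a clock-positive state differ from clock-negative ones. Most Hox genes with a measurable level were higher in clock-positive bulge cells. Of the 27 Hox genes that passed the filter on dim genes, 19 were called higher, 2 lower and 6 not called (limma, Benjamini-Hochberg adjusted p under 0.05). This comparison moved a large part of the array. Among all 13956 genes tested, 45.2% were called higher and 18.3% lower, and the median change was 0.15. The median change of the 27 Hox genes was 0.34. Over all 37 members, dim ones included, the median was 0.23, and with no filter the median of all genes was 0.01. The filter left out the dimmest 30% of genes by the mean over the 6 arrays, so a gene near that level could pass through its higher group. The counts of Hox genes are therefore read only beside the background.

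Of the 27, 7 were called higher with a fold change of at least 1.5, against 5.12% of all genes tested. They were Hoxc13, Hoxc8, Hoxb9, Hoxa2, Hoxc6, Hoxb6 and Hoxd8. Hoxd8, which alone came from the Hoxd cluster, passed the filter only through its higher group, and its call is no support for this count. The groups did not overlap, with every clock-positive array above every clock-negative array, for 19 of the 27 tested Hox genes, against 50.1% of all genes tested. These were 18 of the 19 genes called higher, all but Hoxb3, plus Hoxc4. The reverse held for 2 Hox genes, against 19.1% of all genes tested.

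**Figure D1:**
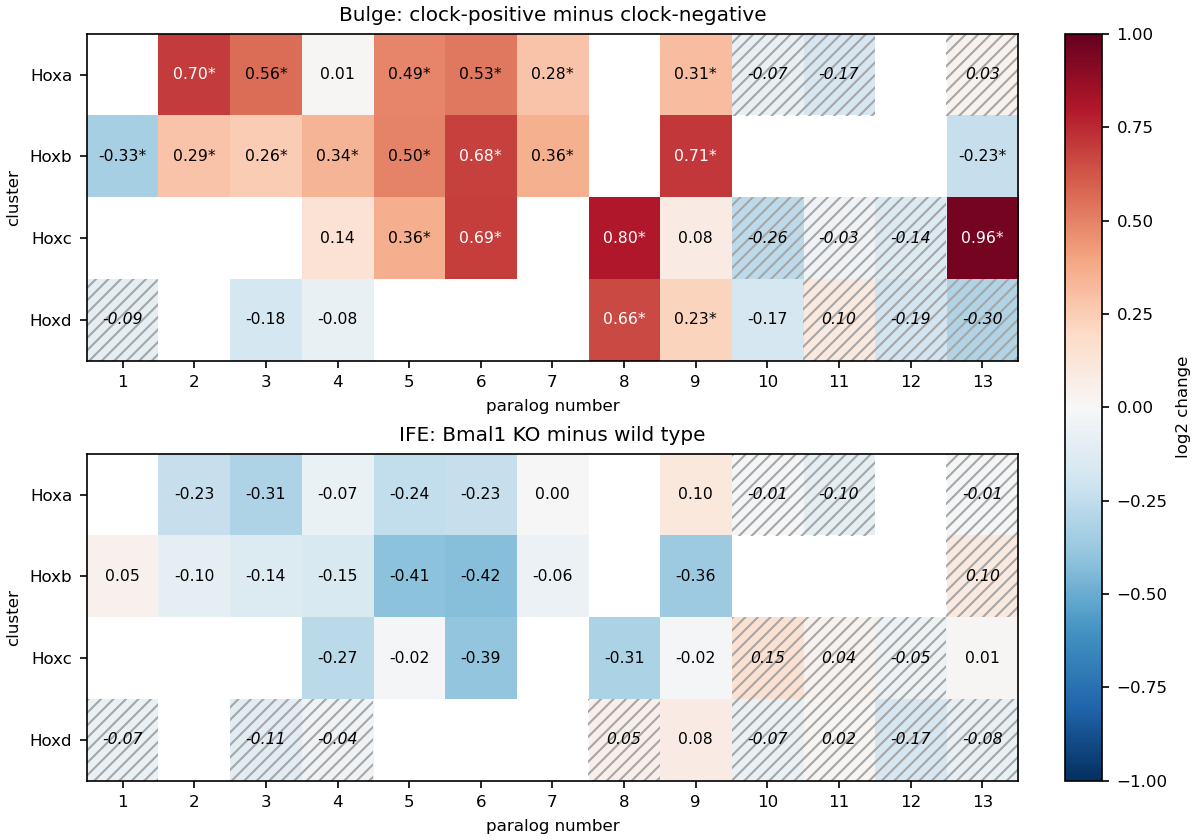
Change in log2 intensity of each Hox gene, by cluster (rows) and paralog number (columns), clock-positive minus clock-negative in the bulge set and Bmal1 KO minus wild type in the IFE set. Red is higher, blue is lower and an asterisk is an adjusted p under 0.05. In the bulge set the 14 tested genes of paralog groups 4 to 8 include 11 called higher and 0 called lower, beside 45.2% and 18.3% of all genes tested. Hoxd8, among the 11, passed the filter only through its higher group, and its call is no support for the count. In the IFE set none is called, beside 0.193% of all genes tested.

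Hoxc13 had the largest change of any Hox gene. It read 8.43, 8.40 and 8.51 in clock-positive arrays and 7.70, 7.28 and 7.48 in clock-negative arrays. The lowest clock-positive array stood above the highest clock-negative one, and the mean difference was 0.96 ± 0.10, a 1.94-fold rise (adjusted p = 3.47e-05). In mice, loss of Hoxc13 leaves hair shafts brittle, and its known keratin targets sit in the differentiating hair.

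Hoxc8, which patterns the thoracic skeleton in mice, read 9.31, 9.34 and 9.41 in clock-positive arrays and 8.54, 8.56 and 8.54 in clock-negative arrays. It had the tightest groups of the large changes, with SDs of 0.05 and 0.01, and the rise was 0.80 ± 0.06 (1.74-fold, adjusted p = 4.85e-06). Hoxc6, a thoracic neighbour of Hoxc8 in the cluster, read 8.79, 8.52 and 8.67 against 7.98, 7.99 and 7.94, a rise of 0.69 ± 0.08 (adjusted p = 5.71e-05). Neither gene overlapped between groups.

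In the Hoxb cluster, Hoxb9, known for rib patterning, read 7.92, 7.88 and 8.07 in clock-positive arrays and 7.10, 7.39 and 7.25 in clock-negative arrays. Its rise was 0.71 ± 0.09 (adjusted p = 1.08e-04), and no array of one group reached the other. Hoxb6 read 8.79, 8.69 and 8.81 against 8.17, 7.97 and 8.09, a rise of 0.68 ± 0.07 (adjusted p = 4.26e-05). Again no clock-positive array fell to the level of a clock-negative one.

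Of the anterior genes, Hoxa2, which sets the identity of the second pharyngeal arch, read 7.37, 7.48 and 7.54 in clock-positive arrays and 6.77, 6.70 and 6.82 in clock-negative arrays. Its rise was 0.70 ± 0.07 (adjusted p = 2.75e-05). Hoxa3, needed for thymus and parathyroid formation, read 7.56, 7.51 and 7.60 against 7.04, 6.95 and 7.01, a rise of 0.56 ± 0.06 (adjusted p = 6.06e-05). Both were separated without overlap. Hoxd8 read 6.69, 6.83 and 7.05 against 6.16, 6.14 and 6.30, a rise of 0.66 ± 0.09 (adjusted p = 2.51e-04). Clock-positive arrays spread more than clock-negative arrays for Hoxd8, with SDs of 0.18 and 0.08. Its clock-negative mean of 6.20 lay below the filter level of 6.27, so Hoxd8 was tested only through the group where it is high, and its call is no support for the counts.

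**Figure D2:**
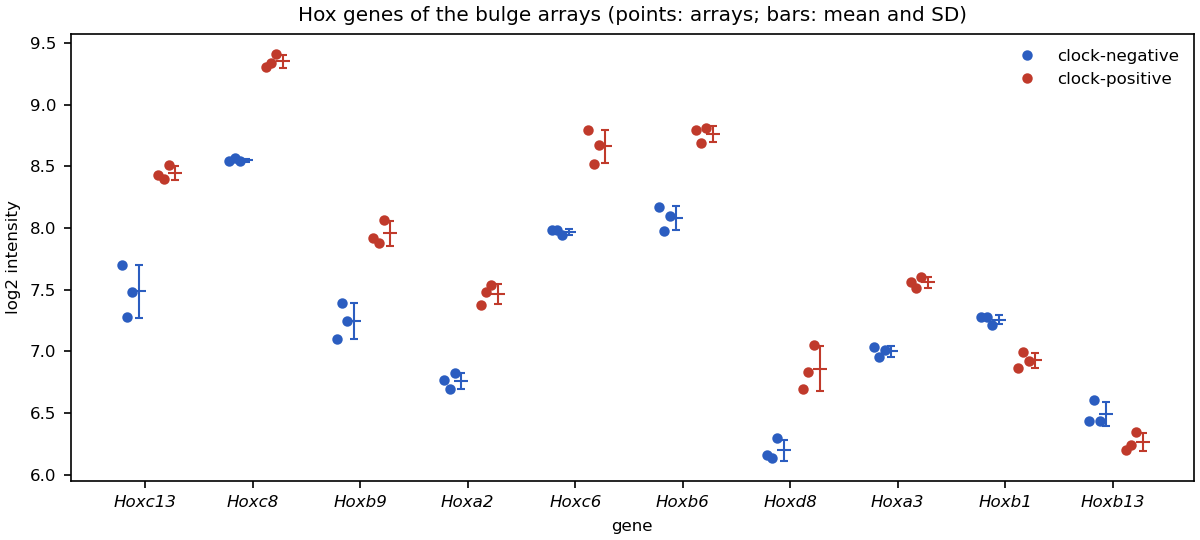
Log2 intensity in the bulge set of the 8 Hox genes called higher with the largest changes and of the 2 called lower, on each of 3 clock-positive and 3 clock-negative arrays. Points are single arrays and bars are the group mean and SD. No gene shown has overlapping groups. The genes were picked by call and size of change, so this adds no support. Among all genes tested, the groups did not overlap for 50.1% in the higher and 19.1% in the lower direction.

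Only 2 tested Hox genes were called lower. Hoxb1, which specifies the fourth hindbrain segment, read 6.87, 6.99 and 6.92 in clock-positive arrays and 7.28, 7.28 and 7.22 in clock-negative arrays. It fell by 0.33 ± 0.06 (adjusted p = 0.00149). Hoxb13, known from the prostate and the tail end of the axis, read 6.20, 6.24 and 6.35 against 6.43, 6.60 and 6.44, a change of -0.23 ± 0.07 (adjusted p = 0.0186). The clock-positive mean of Hoxb13, 6.26, lay below the filter level, so it too was tested only through its higher group, and its call was lost when any of clock-positive array 1, clock-positive array 2 or clock-negative array 2 was left out. These 2 genes are the end members of the Hoxb cluster, while the 7 Hoxb genes between them, Hoxb2 to Hoxb7 and Hoxb9, were all called higher as deposited. After quantile normalisation or cyclic loess, Hoxb13, Hoxb2, Hoxb3 and Hoxb7 were not called. The contrast of ends and middle therefore depended on the scaling, and nothing is drawn from it.

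The promoters are shown for 3 called genes, Hoxa2 and Hoxd8, the largest rises among members with a RefSeq window, and Hoxb1, the clearest fall, so that genes moving in opposite directions can be read side by side. Windows of 300 bases across the transcription start are credited to RefSeq, mouse build GRCm38.p6. Of the 37 members, 21 had a window, 23 windows in all. A first motif searched was CACGTG, the E-box that BMAL1 and CLOCK bind, which reads alike on both strands. Another was AGGTCA, the core of the element bound by ROR and NR1D1 proteins. The last was CCAAT, the NF-Y box. Both strands were searched, so a match on the other strand is also in capitals, and the E-box and the AGGTCA core share bases in the Hoxd10 window. Capitals mark every match. The Hoxa2 window lies at chr6:52164782-52165081 on the minus strand, the Hoxd8 window at chr2:74704365-74704664 on the plus strand and the Hoxb1 window at chr11:96365508-96365807 on the plus strand.
Hoxa2: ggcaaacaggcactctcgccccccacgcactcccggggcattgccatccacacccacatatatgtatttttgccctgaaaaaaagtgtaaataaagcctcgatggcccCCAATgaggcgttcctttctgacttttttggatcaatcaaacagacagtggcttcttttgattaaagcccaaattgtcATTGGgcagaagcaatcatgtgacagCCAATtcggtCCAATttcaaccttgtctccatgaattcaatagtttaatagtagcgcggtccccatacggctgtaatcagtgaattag
Hoxd8: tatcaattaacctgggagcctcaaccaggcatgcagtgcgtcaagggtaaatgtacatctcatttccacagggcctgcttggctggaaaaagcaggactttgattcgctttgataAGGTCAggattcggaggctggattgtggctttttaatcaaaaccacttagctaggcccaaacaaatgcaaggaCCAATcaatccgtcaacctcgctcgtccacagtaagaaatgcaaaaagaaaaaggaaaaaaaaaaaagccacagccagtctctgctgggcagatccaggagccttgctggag
Hoxb1: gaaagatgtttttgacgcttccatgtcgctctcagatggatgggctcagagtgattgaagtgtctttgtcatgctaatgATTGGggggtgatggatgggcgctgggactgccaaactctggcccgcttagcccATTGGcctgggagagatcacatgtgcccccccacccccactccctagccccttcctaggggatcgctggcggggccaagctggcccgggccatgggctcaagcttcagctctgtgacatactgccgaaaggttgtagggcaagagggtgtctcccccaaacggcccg
Hoxa2 and Hoxd8 are called higher and Hoxb1 lower. Hoxa2 holds 4 CCAAT boxes, Hoxd8 has 1 AGGTCA core and 1 CCAAT box, and Hoxb1 has 2 CCAAT boxes. The E-box was in the windows of 5 Hox genes, Hoxd1, Hoxd4, Hoxd10, Hoxd11 and Hoxd13, and in 7.15% of all 32851 RefSeq promoter windows. The AGGTCA core was in 7 Hox genes (Hoxa5, Hoxb4, Hoxc4, Hoxd3, Hoxd4, Hoxd8 and Hoxd10) and in 16.3% of all windows. The CCAAT box was in 14 Hox genes and in 37.4% of all windows. The median GC content was 58% for Hox windows and 52.7% for all, and the median number of CpG pairs was 15 against 7. A match is a description of letters, and the absence of one says nothing about a factor.

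The remaining 11 genes called higher changed by 0.23 to 0.53. Hoxa6 changed by 0.53, Hoxb5 by 0.50 and Hoxa5, required for normal lung development, by 0.49. Hoxc5 and Hoxb7 each changed by 0.36, Hoxb4, known for its effect on blood stem cells, by 0.34 and Hoxa9, a leukaemia-associated gene, by 0.31. Hoxb2, Hoxa7, Hoxb3 and Hoxd9 changed by 0.29, 0.28, 0.26 and 0.23. Hoxb3 was the one gene called higher whose groups overlapped, with values of 8.55, 8.78 and 8.50 against 8.31, 8.53 and 8.22 (adjusted p = 0.0378). Its call was lost without clock-positive array 2, clock-negative array 1 or clock-negative array 3.

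The 6 tested genes not called were Hoxa4, Hoxc4, Hoxc9, Hoxd3, Hoxd4 and Hoxd10. Hoxc4 differed by 0.14 (95% interval 0.01 to 0.27, adjusted p = 0.0565) and its groups did not overlap. For Hoxc9 the difference was 0.08 (-0.07 to 0.23) and for Hoxa4 it was 0.01 (-0.15 to 0.18). The 3 Hoxd genes had values below 0, at -0.08 (-0.25 to 0.10) for Hoxd4, -0.17 (-0.35 to 0.01) for Hoxd10 and -0.18 (-0.35 to -0.00455) for Hoxd3. None of these 6 intervals reached the change of any of the 8 genes with the largest rises. That follows from picking the genes by call and size of change, and nothing is drawn from it. Hoxc4 and Hoxc9 were called higher under other scalings, as given below.

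By cluster, 7 of 9 tested Hoxb genes were called higher and 2 lower. Of 7 tested Hoxa genes 6 were called higher, of 6 tested Hoxc genes 4 and of 5 tested Hoxd genes 2, with none lower in those clusters. The order of the clusters turned with the scaling: after quantile normalisation, and also after cyclic loess, 4 of 9 Hoxb genes were called higher and 1 lower, and 6 of 6 Hoxc genes, 5 of 7 Hoxa genes and 2 of 5 Hoxd genes were called higher. By paralog number, 4 of 6 tested anterior genes (groups 1 to 3), 11 of 14 central genes (groups 4 to 8) and 4 of 7 posterior genes (groups 9 to 13) were called higher. Hoxd8, counted in the Hoxd and central shares, and Hoxb13, counted among those lower, each passed the filter only through its higher group. Their calls are no support for these counts. Among all genes tested, 45.2% were called higher and 18.3% lower as deposited. The share called higher was 29.5% after quantile normalisation and 25.3% after cyclic loess. The difference between the shares of the clusters or of the paralog groups was not tested.

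The dim members were mostly posterior. Of the 16 measured genes of paralog groups 9 to 13, 9 were left out as dim, against 0 of 14 in groups 4 to 8 and 1 of 7 in groups 1 to 3. Since each probe set has its own brightness, these counts are not read as lower expression of posterior genes. The 10 dim members were Hoxa10, Hoxa11, Hoxa13, Hoxc10, Hoxc11, Hoxc12, Hoxd1, Hoxd11, Hoxd12 and Hoxd13. Several of these genes are known for patterning limbs, digits and the lower back in the mouse embryo. When no filter was used, Hoxc10 and Hoxd13 were also called lower, at -0.26 ± 0.10 and -0.30 ± 0.07, and 31.5% of all 19937 genes were called higher and 27.9% lower. The Hox counts were then 19 higher and 4 lower of 37. Just inside the filter lay Hoxd10, with a mean level of 6.35, and just outside it Hoxd11, at 6.26.

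The change of a gene in the bulge set went with its level. All genes were split by mean level into 5 bins of equal size, from bin 1, the dimmest, to bin 5. In bin 1, 8.83% of genes had a change above 0, and in bin 5, 90.4%. The SD of the values over all genes was 2.00 to 2.02 on clock-positive arrays and 1.88 to 1.91 on clock-negative arrays. Hox genes were therefore also read against the other genes of their own bin. In bin 2 all 12 Hox genes were above the bin's median of -0.23, though 5 were above 0. In bin 3, 9 of 10 were above the median of 0.01, and the Hox median there was 0.49. In bin 4, 7 of 8 were above the median of 0.24, with a Hox median of 0.32. In bin 1, 4 of 6 were above the median of -0.20. The single Hox gene of bin 5, Hoxc8, was above its median of 0.22. What share of the Hox changes goes with level was not tested.

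**Figure D3:**
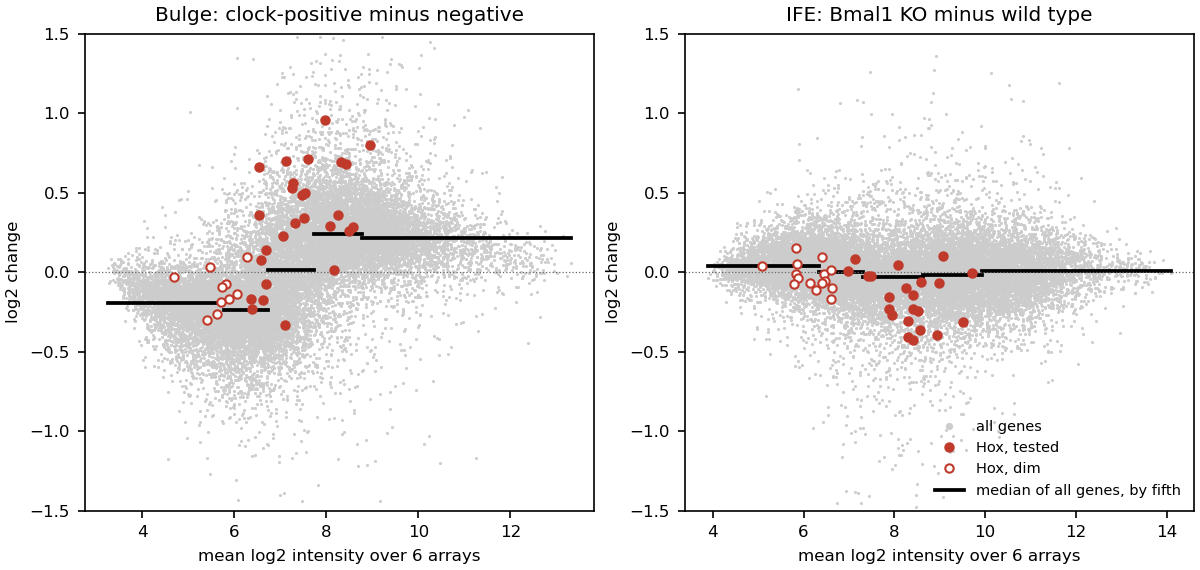
Change in log2 intensity against mean level for all genes (small points) and Hox genes (large points, open where dim), bulge set and IFE set, with the median change in each of 5 bins by level. The vertical axes run from -1.5 to 1.5, and 35 genes of the bulge set and 22 of the IFE set lie beyond them. In the bulge set the median is -0.20 in the dimmest bin and 0.22 in the brightest, and 12 of 12, 9 of 10 and 7 of 8 Hox genes of bins 2, 3 and 4 sit above their bin's median.

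Other scalings of the arrays were applied for this reason. The median change of all genes was 0.15 as deposited, 0.29 after median centring, 0.07 after quantile normalisation and 0.04 after cyclic loess. Hox genes were called 19 higher and 2 lower as deposited, 21 and 1 after median centring, and 17 and 1 after quantile normalisation and also after cyclic loess. Among all genes, 64% were then called higher and 9.71% lower after median centring, 29.5% and 12.2% after quantile normalisation, and 25.3% and 15.8% after cyclic loess. The Hox median stood 0.19 above that of all genes in the first pair of scalings and 0.27 above it in the other pair. The genes called higher under all 4 scalings numbered 15, namely Hoxa2, Hoxa3, Hoxa5, Hoxa6, Hoxa9, Hoxb4, Hoxb5, Hoxb6, Hoxb9, Hoxc5, Hoxc6, Hoxc8, Hoxc13, Hoxd8 and Hoxd9. Hoxd8 stands in this list with the limit that it passed the filter only through its higher group. The share of all genes called higher under all 4 scalings was not counted, so the 15 have no background of their own. Hoxb1 was called lower under all 4.

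The genes whose calls depended on the scaling were at moderate changes. Hoxa7, Hoxb2, Hoxb3 and Hoxb7 were not called after quantile normalisation or cyclic loess, with changes of 0.11, 0.16, 0.08 and 0.21 under quantile normalisation. Among the 4 scalings Hoxb13 was called only as deposited and stood at -0.09, -0.01 and -0.01 under the other 3. Hoxc4 and Hoxc9 were called higher under those 3, at 0.28 to 0.32 for Hoxc4 and 0.22 to 0.27 for Hoxc9. Over the 4 scalings the change was 0.83 to 1.10 for Hoxc13, 0.66 to 0.85 for Hoxd8 and 0.70 to 0.84 for Hoxa2.

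**Figure D4:**
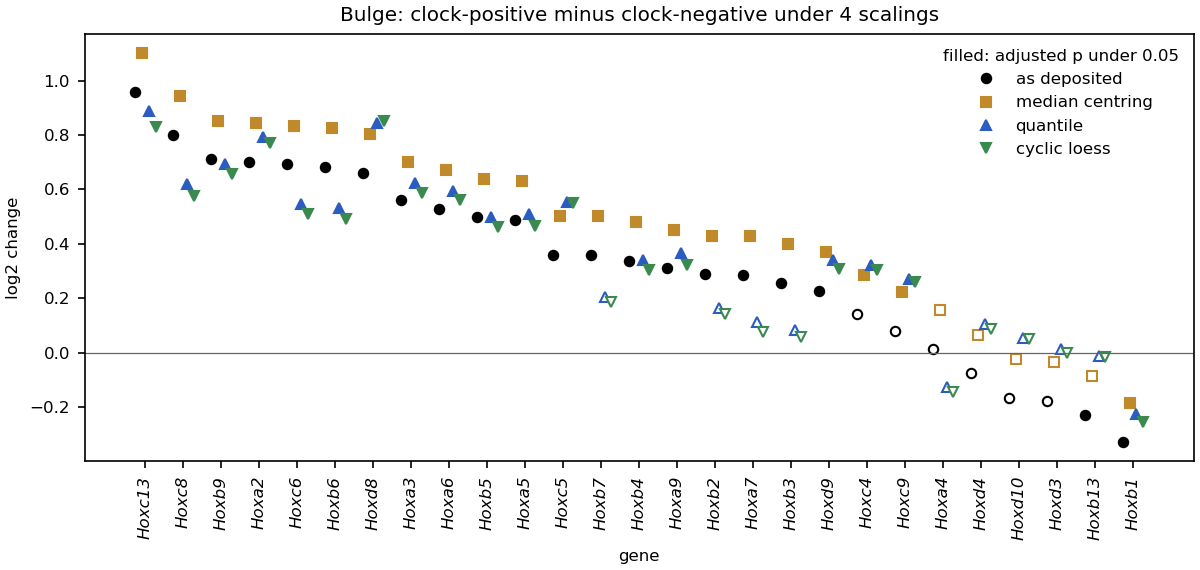
Change in log2 intensity of the 27 tested Hox genes in the bulge set under 4 scalings of the arrays, clock-positive minus clock-negative. Each point is 1 gene under 1 scaling, filled where the adjusted p is under 0.05, and 15 genes are called higher and 1 lower under all 4. Hoxd8, among the 15, passed the filter only through its higher group. Under single scalings, 25.3% to 64% of all genes are called higher, and the share under all 4 was not counted.

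The cell types other than keratinocytes that the sort could hold were read in the same way. T cell markers were lower in clock-positive arrays, with 5 of 5 tested markers called lower and a mean level of 7.65 to 7.70 against 8.78 to 8.96. Endothelial markers were higher, with 5 of 6 called higher and a mean level of 7.91 to 7.94 against 7.56 to 7.59. Of 9 dermal fibroblast markers, 3 were dim, 2 were called higher and 3 lower, and their mean levels overlapped, at 6.74 to 6.81 against 6.69 to 6.78. Fibroblasts are a known site of strong Hox expression in skin. Melanocyte markers were called lower in 3 of 4 tested and higher in 1. All these marker counts stand beside the 45.2% of all genes tested that were called higher and the 18.3% called lower. The part of these cells in the Hox differences was not tested. In sorted populations of this kind, fewer cells of a type and less RNA per cell cannot be told apart.

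Genes that work with or on Hox genes were read from full lists of named genes and are described by counts. TALE cofactors, the PBX, MEIS and PKNOX proteins that bind DNA together with HOX proteins, had 5 of 8 called higher and 2 lower. Pbx2 changed by 0.58, Pbx3 by 0.64, Pknox2 by 0.68 and Meis1 by 0.39. Polycomb genes, which keep Hox clusters silent, had 14 of 24 called higher and 0 lower, with Bmi1 at 0.65, Rybp at 0.75, Pcgf1 at 0.65 and Cbx8 at 0.52. Trithorax genes and H3K27 demethylases, which oppose Polycomb, had 6 of 10 called higher and 0 lower, with Kdm6b at 0.36, Kdm6a at 0.38, Men1 at 0.34 and Kmt2b at 0.27. Upstream axial regulators had 2 of 6 called higher and 2 lower, with Rarg, a retinoic acid receptor, at 0.36, Gmnn at 0.26, Cdx2 at -0.23 and Egr2 at -0.28. These shares stand beside the 45.2% higher and 18.3% lower of all genes tested. The mean levels of the Polycomb and Trithorax lists fall in bins 4 and 5, where 86.4% and 90.4% of genes were above 0. The list medians were 0.27 for Polycomb and 0.23 for Trithorax, beside bin medians of 0.24 and 0.22. No rise particular to these lists is read from the counts.

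Of 7 tested hair genes listed as targets of Hoxc13, 5 were called lower and 0 higher, beside 18.3% and 45.2% of all genes tested, with a median change of -0.39. Krt31 was at -0.54, Krt35 at -0.50, Krt84 at -0.42 and Krt82 at -0.39, and these genes encode hair and tongue keratins. By level they lie in bins 2 and 3, where 16% and 51.6% of all genes were above 0. Of 6 tested genes of a separate hair shaft and matrix list, 3 were called higher and 2 lower. Those lower were Krt33a at -0.80 and Krt33b at -0.55, so falls of this size were not particular to the Hoxc13 list. The part of level in these falls was not tested. Of 12 other tested homeobox genes of hair and skin, 6 were called higher and 0 lower, a share close to the 45.2% of all genes tested that were called higher. Lhx2, a bulge stem cell factor, was at 1.06, Dlx3 at 0.75, Msx2 at 0.62 and Dlx2 at 0.34.

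The IFE comparison asked how basal cells without Bmal1 differ from wild-type ones. None of the 22 tested Hox genes was called. Over all 13956 genes, 0.0788% were called higher and 0.115% lower in KO arrays, 27 genes in all. At an unadjusted p under 0.05, 3 Hox genes were lower and none higher, against 5.5% lower and 2.46% higher of all genes. The changes of tested Hox genes were mostly below 0, in 18 of 22, against 53.5% of all genes tested. The mean of the 22 genes overlapped between genotypes, at 8.24, 8.44 and 8.48 in wild-type arrays and 8.40, 8.20 and 8.08 in KO arrays. The 3 arrays with a score below 0 on component 1, wild-type array 1, KO array 2 and KO array 3, had the 3 lowest means, and the part of that component in the Hox values was not tested. The median change of the 22 Hox genes was -0.15 and that of all genes -0.01. Of the 22, 5 had all KO arrays below all wild-type arrays and 0 the reverse, against 8.56% and 4.11% of all genes.

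Hoxb6 read 8.49, 8.80 and 8.61 in wild-type arrays and 8.38, 8.11 and 8.14 in KO arrays. The groups did not overlap, and the difference was -0.42 ± 0.13 (95% interval -0.71 to -0.13, unadjusted p = 0.00952, adjusted p = 0.348). Hoxb5 read 8.40, 8.56 and 8.55 against 8.32, 7.98 and 7.98, a difference of -0.41 (-0.70 to -0.12, adjusted p = 0.376). For both genes KO array 1 was the highest KO array and stood nearest to the wild-type values.

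Hoxc6 read 8.99, 9.17 and 9.22 in wild-type arrays and 8.91, 8.78 and 8.50 in KO arrays, a difference of -0.39 (-0.70 to -0.09, adjusted p = 0.422). Hoxc4 read 7.91, 8.19 and 8.11 against 7.87, 7.90 and 7.63, a difference of -0.27 (adjusted p = 0.667). Hoxb3 read 8.40, 8.49 and 8.57 against 8.34, 8.35 and 8.34, a difference of -0.14 (adjusted p = 0.857). In each of these genes the highest KO array lay just below the lowest wild-type array, and none of the 5 genes without overlap passed the test.

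**Figure D5:**
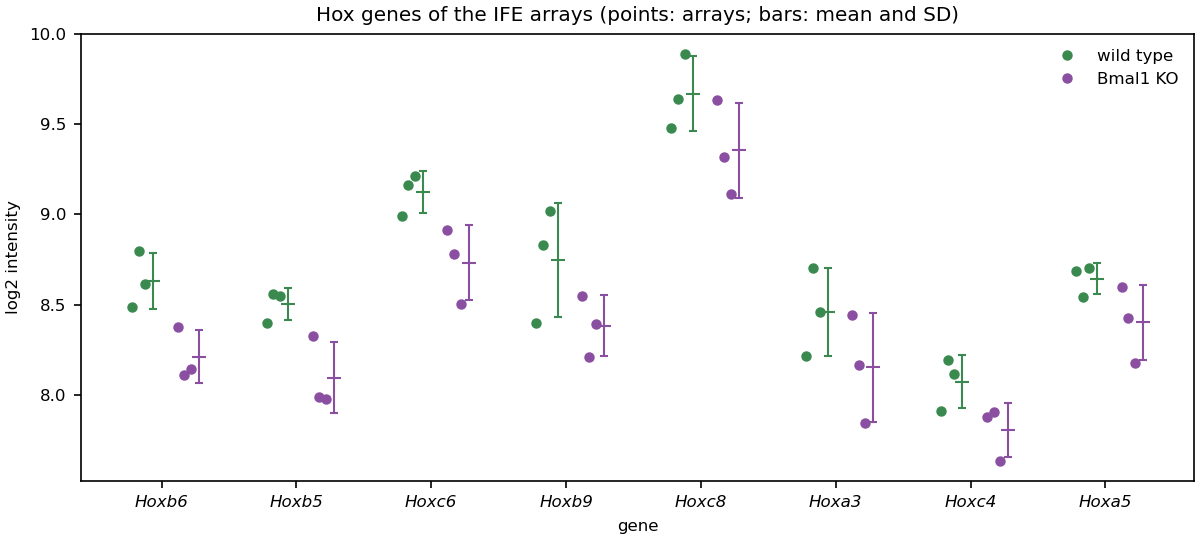
Log2 intensity of the 8 tested Hox genes with the lowest change in the IFE set on each of 3 wild-type and 3 Bmal1 KO arrays. Points are single arrays and bars are the group mean and SD. Hoxb6, Hoxb5, Hoxc6 and Hoxc4 have no overlap between groups, and Hoxb9, Hoxc8, Hoxa3 and Hoxa5 do. The genes were picked by size of change. Among all genes tested, 8.56% had all KO arrays below all wild-type arrays.

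Of the tested members whose groups overlapped, Hoxb9 was at -0.36 (-0.76 to 0.03), Hoxc8 at -0.31 and Hoxa3 at -0.31. The remaining 10 genes with a change below 0, Hoxa2, Hoxa4, Hoxa5, Hoxa6, Hoxa7, Hoxb2, Hoxb4, Hoxb7, Hoxc5 and Hoxc9, lay between -0.24 for Hoxa5 and -0.0032 for Hoxa7. All 12 tested genes of paralog groups 4 to 8 had a change below 0, against 53.5% of all genes tested, and none of the 12 was called. They were read on the same arrays, so they are not separate observations of a difference. The 4 genes above 0 were Hoxa9 at 0.10, Hoxd9 at 0.08, Hoxb1 at 0.05 and Hoxc13 at 0.01. Hoxc13 read 6.47, 7.24 and 7.20 in wild-type arrays and 7.08, 7.04 and 6.82 in KO arrays, and the 95% interval of its difference ran from -0.47 to 0.48. Wild-type array 1 stood apart from the other Hoxc13 values.

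In the IFE set 15 members were left out as dim, with Hoxc13 just inside the filter at a mean level of 6.98 and Hoxa11 just outside at 6.62. They were Hoxa10, Hoxa11, Hoxa13, Hoxb13, Hoxc10, Hoxc11, Hoxc12, Hoxd1, Hoxd3, Hoxd4, Hoxd8, Hoxd10, Hoxd11, Hoxd12 and Hoxd13, with changes from -0.17 for Hoxd12 to 0.15 for Hoxc10. No member was called when the filter was dropped, and 0.0251% of all genes were then called higher and 0.0552% lower. Hoxd3, a dim member, also had all KO arrays below all wild-type arrays, with a change of -0.11. The number of Hox calls depended on the fit in 2 alternatives. With all 12 arrays in 1 fit, Hoxb5 and Hoxb6 were called lower (adjusted p = 0.0446 and 0.0438). With array weights 15 Hox genes were called lower, but the estimation of the weights did not converge, so these calls are given as values only. KO array 2 had a weight of 37.8, wild-type array 2 of 3.89 and the other 4 arrays 0.175 to 0.777, and 1926 genes were called higher and 4768 lower.

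The cofactor and regulator lists had 0 genes called in either direction in the IFE, beside 0.0788% higher and 0.115% lower of all genes tested. With so few genes called at all, nothing is drawn from this. Meis1 was at -0.20, Jarid2 at -0.42, Gdf11 at -0.39 and Foxq1 at -0.50, and none passed the test. T cell markers differed between these arrays too. Their mean level was 8.53 to 9.89 in wild-type arrays and 8.24 to 8.33 in KO arrays, and the median change of the 4 tested markers was -1.28. Cd3g was at -2.66 (adjusted p = 0.0663), Cd3e at -1.33 (0.187) and Cd7 at -1.22 (0.302), each without overlap and none called. The one called marker, Thy1, was higher by 1.19 (adjusted p = 0.0155). Their part in the Hox values was not tested.

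For the 8 genes with the largest rises in the bulge comparison, the KO minus wild-type values were -0.42 for Hoxb6, -0.39 for Hoxc6, -0.36 for Hoxb9, -0.31 for Hoxc8 and Hoxa3, -0.23 for Hoxa2 and 0.01 for Hoxc13. Hoxd8 was dim in the IFE set. None of these IFE values passed the test. The bulge and IFE comparisons share no arrays, but they differ in tissue, age and the way clock state was set, and the difference between them was not tested.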

How the data were processed

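Expression was measured on 12 Affymetrix arrays, 3 per group, from amplified total RNA of pooled, sorted mouse epidermal cells. The authors deposited log2 intensities. RMA is the method that the submitters' processing notes name, and no version is given in the sources used here. RMA pulls array distributions together, so a shift shared by most genes can be reduced. Nothing was normalised again in the main analysis. The bulge and IFE sets appear to have been normalised apart and were compared only within themselves. Per-sample columns left unused numbered 0. The number of arrays limits the precision.

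Probe sets were named through the platform annotation: 21789 of 35512 had exactly 1 symbol, 1621 several and 12102 none. For 21698, the Entrez identifier matched RefSeq GRCm38.p6. Of several probe sets of a gene, one measured on all arrays was preferred, then the brightest. The dimmest 30% of genes in each set were left out, and 13956 were tested with limma 3.58.1 in R 4.3.3 (lmFit and eBayes) on the 6 arrays of a comparison, with Benjamini-Hochberg adjustment over all of them and calls at an adjusted p under 0.05. The fit was tested on simulated data. Replicate numbers were not taken as pairs and no block was used in the main fit. The alternatives were other filters and scalings, every probe set, a variance trend, all 12 arrays in 1 fit, array weights, the replicate block and leaving out each array.

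The members and gene lists were chosen with earlier results of these data known. By the naming rule, array values are given for up to 8 called Hox genes in each direction, and up to 4 members with the smallest p of every other list; values of uncalled Hox genes in the IFE set were given after they were seen.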

Additional observations from a re-analysis of the deposited data

How the results depend on the processing

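In the bulge comparison, the number of Hox genes called higher was within 1.5 times of 19 in every alternative run, and 15 of them were called under all 4 scalings. Those 15 include Hoxd8, which passed the filter only through its higher group, and the matching share of all genes was not counted. Hox genes called lower numbered 4 with no filter and 4 with array weights, 0 with the dimmest 50% left out, and 1 after median centring, quantile normalisation and cyclic loess. Among all genes, 5564 were called lower with no filter, 740 with the 50% filter, 1355 after median centring and 1697 after quantile normalisation. Genes called higher were 4117 after quantile normalisation, 3531 after cyclic loess and 3494 with all 12 arrays in 1 fit. Leaving out each array gave 1 to 3 Hox genes called lower: 1 without clock-positive array 1, clock-positive array 2 or clock-negative array 2. Values that changed sign were not called in any of these settings: Hoxd4 was 0.066, 0.10 and 0.086 after median centring, quantile normalisation and cyclic loess, Hoxd10 was 0.055 and 0.050 after the last 2, Hoxa4 was -0.13 and -0.15, and Hoxd3 was 0.013 after quantile normalisation. With an array left out, Hoxa4 ranged from -0.046 to 0.052. The cause was not tested.

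In the IFE comparison 0 Hox genes were called in all alternatives except the fit of all 12 arrays, with 2 lower, and array weights, with 15 lower. The estimation of array weights did not converge in the IFE set or in the bulge set, so values under that setting support nothing. Genes called higher and lower among all genes were 150 and 257 in the first and 1926 and 4768 in the second. They were 5 higher with no filter, 18 and 29 with the 50% filter, 7 higher after median centring, 23 and 26 after quantile normalisation, 44 and 41 after cyclic loess and 21 and 36 with a variance trend. Leaving out each array gave 3 to 27 higher and 3 to 76 lower, the most without wild-type array 1, and the omission of any array moved at least 1 of the counts, 11 and 16 as deposited, by over 1.5 times. Among genes that were not called as deposited, Hoxc13 was -0.000253 after median centring, -0.00232 after quantile normalisation and -0.16 with weights, and Hoxa9 was -0.15 with weights. Hoxc5 was 0.0019 after cyclic loess and 0.024 with weights, Hoxa7 was 0.019 and Hoxc9 0.0042 after cyclic loess. With an array left out, Hoxc13 ranged from -0.24 to 0.14, Hoxa7 from -0.11 to 0.049, Hoxc5 from -0.13 to 0.14, Hoxc9 from -0.052 to 0.0071 and Hoxb7 from -0.15 to 0.0037.

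Residuals of same-numbered arrays correlated at 0.24, 0.26 and -0.06 in the bulge set, against -0.32 to 0.13 for arrays of other numbers. In the IFE set they correlated at -0.44, 0.04 and -0.52, against -0.31 to 0.54. For bulge numbers 1 and 2 the same-number value lay above those of other numbers, so a pairing there is not excluded. The numbers were not taken as pairs in the main fit. With the replicate block, 19 Hox genes were called higher and 3 lower in the bulge, and in the IFE 0 Hox genes, with 0 genes higher and 3 lower among all. With 3 arrays a group, each from a pool, precision limits the size of difference that can be called.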

Other observations

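Transcripts other than Hox genes lie within the Hox clusters, and those named on the arrays were read after the Hox values had been seen. In the bulge set Mir615, in the Hoxc cluster, read 8.10 ± 0.14 in clock-positive and 8.59 ± 0.17 in clock-negative arrays (SD, n = 3), a fall of 0.50 ± 0.10 on the log2 scale (limma, adjusted p = 0.00159). Mir196a-2, also in the Hoxc cluster, was at -0.29 ± 0.10 (adjusted p = 0.0319) and Mir196b, in the Hoxa cluster, was at -0.28 (adjusted p = 0.0954). Of the noncoding RNAs, Hoxd3os1 was at -0.28 ± 0.07 (adjusted p = 0.00600) and Hoxaas2 at 0.15 (adjusted p = 0.0480). Mir10a, Mir10b, Mir196a-1 and Hottip were dim. In the IFE set none of the 9 was called, with dim ones read from the fit with no filter. Of all genes tested there, 0.193% were called in either direction, so nothing is drawn from this. Whether these probe sets read the primary or the mature form was not tested. The mature sequences are shown, credited to RefSeq, with the seed (bases 2 to 8) in capitals, because miR-196a and miR-196b share a seed and so do miR-10a and miR-10b, while miR-615 stands alone.
miR-615-3p: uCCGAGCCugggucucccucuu
miR-196a-5p: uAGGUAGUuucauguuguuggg
miR-196b-5p: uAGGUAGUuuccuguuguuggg
miR-10a-5p: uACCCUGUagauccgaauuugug
miR-10b-5p: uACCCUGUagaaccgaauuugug

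The probe set shared by Hoxb8 and Hoxb7 read 8.16 ± 0.05 in clock-positive and 7.59 ± 0.03 in clock-negative arrays, and 8.62 ± 0.04 in KO and 8.73 ± 0.07 in wild-type IFE arrays (SD, n = 3). It was not tested, since it cannot be assigned to either gene.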
